A study of Arabidopsis thaliana with 9 samples.

Results

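Transcripts of 9 nuclear genes of the Calvin-Benson cycle were followed across 9 samples of Arabidopsis thaliana leaves. The genes encode cycle enzymes, or subunits of them, under the control of chloroplast thioredoxins, together with the small linker protein CP12. They are GAPA1, GAPA2, GAPB, PRK, the plastid fructose-1,6-bisphosphatase (FBPase, annotated as HCEF1), SBPASE, CP12-1, CP12-2 and CP12-3. They were chosen by locus identifier, with earlier results of these data known, and 9 of 9 were found among the 33602 loci of the deposited table. Poly(A) RNA came from young rosette leaves of Col-0 plants aged 8 weeks, grown in short days and harvested 2 h into the light period at 125 µE m-2 s-1. There were 3 biological replicates, each a pool from 3 plants, of the wild type, of 2cpab (labelled as lacking the 2-Cys peroxiredoxins A and B) and of ntrc-2cpab (labelled as lacking in addition the NADPH-dependent thioredoxin reductase NTRC). Each mutant is labelled as a single genotype without its alleles, and effects of the mutations and of anything else that sets a line apart cannot be told apart.

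In the Calvin-Benson cycle, plastid glyceraldehyde-3-phosphate dehydrogenase, built from A and B subunits, uses NADPH to reduce the product of carbon fixation. FBPase and sedoheptulose-1,7-bisphosphatase remove a phosphate in the regeneration of the acceptor, and phosphoribulokinase makes ribulose-1,5-bisphosphate. In darkness CP12 holds the dehydrogenase and phosphoribulokinase together in an inactive complex, and reduced thioredoxins release them in the light. The B subunit carries a tail related to CP12. 2-Cys peroxiredoxins draw electrons from thioredoxins, and NTRC is their main reductant. This regulation acts on proteins, which were not measured here. The data bear on transcript levels.

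Transcripts of the mutated genes were low in the samples labelled as their mutants, though not absent. 2CPA had 259 to 325 in wild-type samples and 3.43 to 4.85 in mutant ones (scaled abundance, the deposited value with its log2 transformation and its offset of 1 undone). 2CPB, the gene for the other peroxiredoxin, had 53 to 63.4 and 8.88 to 10.8, and NTRC had 14.7 to 18.3 in ntrc-2cpab against 60.9 to 80.2 in the other 6 samples. Of the markers checked, 3 of 3 for mesophyll were high, with a summed abundance of 12507 to 19379 per sample, while the 2 root and the 2 flower markers summed to at most 0.298 and 0.196 and PLT1 was at 0 in every sample. The read depth is unknown because the table holds no counts. Wild type replicate 1 stood apart from replicates 2 and 3 at most of the genes described below, and values without it are given for some of them. In bulk leaf RNA, fewer mesophyll cells and less RNA per cell cannot be told apart.

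Transcripts of the enzymes were among the most abundant in the leaf. GAPA1 was the highest, at a mean of 990.1 over the 9 samples, followed by GAPB at 754, GAPA2 at 521, PRK at 407, SBPASE at 340.3, FBPase at 269, CP12-1 at 245 and CP12-2 at 168. Each of these 8 genes lay at or above the 97.4th percentile of the 16384 genes tested. StringTie, which the submitters' notes name, reports abundance per transcript length, and the genes are ordered on that basis. CP12-3 stood far below, at 0.823, under the mean of 1 required for testing. The order held in 9 of 9 samples between most neighbours. The exceptions were GAPB above GAPA2, in 8 of 9, and FBPase above CP12-1, in 7 of 9. In the wild type the ranges of GAPB and GAPA2 overlapped, as did those of PRK and SBPASE, although PRK was above SBPASE within each of the 9 samples.

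**Figure D1:**
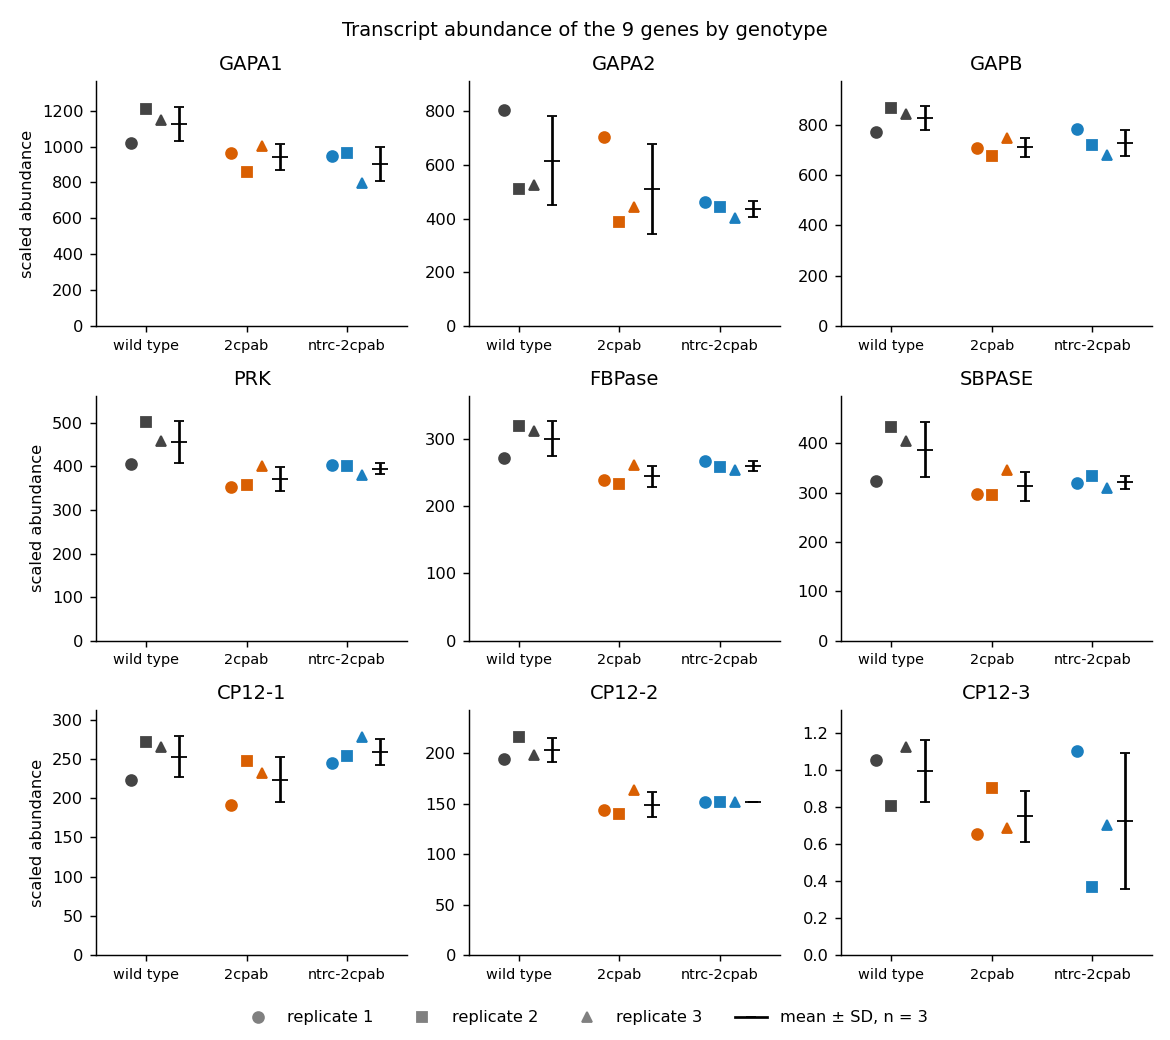
Scaled abundance of each gene in every sample (y axis, linear from 0) by genotype (x axis). Symbols mark replicates 1 to 3, and the bar beside them shows mean ± SD of 3 samples. CP12-2 stood at 195 to 217 in the wild type and at 140 to 163 in the mutants, while GAPA2 was highest in replicate 1 of the wild type and of 2cpab.

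Of the 3 genes for the dehydrogenase, none passed the test in either mutant. GAPA1 (AT3G26650, chr3:9794862-9797045, plus strand, all coordinates on TAIR10.1), which encodes the main A subunit, had abundances of 1020, 1207 and 1147 in wild type replicates 1, 2 and 3, of 966, 861 and 1002 for 2cpab and of 946, 966 and 797 for ntrc-2cpab. All 6 mutant samples lay below the 3 wild-type samples. The log2 fold change was -0.25 ± 0.106 (SE) in 2cpab (n = 3 per genotype, limma with Benjamini-Hochberg adjustment over all genes, calls at an adjusted p under 0.05, adjusted p = 0.258) and -0.32 ± 0.106 in ntrc-2cpab (limma adjusted p = 0.113).

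GAPB (AT1G42970, chr1:16127353-16129895, plus strand), for the B subunit, stood at 773, 866 and 841 in wild-type leaves, at 707, 674 and 748 for 2cpab and at 782, 719 and 679 for ntrc-2cpab. The 2cpab samples lay below every wild-type sample, whereas ntrc-2cpab replicate 1 lay above wild type replicate 1. The log2 fold changes of -0.22 and -0.19 did not pass (limma adjusted p = 0.226 and 0.212).

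GAPA2 (AT1G12900, chr1:4392438-4394454, minus strand), the other gene for an A subunit, varied more than any other of the 8 tested genes. It stood at 807, 512 and 527 in wild-type leaves, at 704, 387 and 442 for 2cpab and at 461, 445 and 402 for ntrc-2cpab. Replicate 1 was the highest sample of each genotype, and the wild type and 2cpab overlapped, while ntrc-2cpab lay below the wild type throughout. The SE of its log2 fold change was 0.231, against 0.0809 to 0.116 for the other 7 tested genes, and neither difference from the wild type passed (-0.28, limma adjusted p = 0.565, and -0.47, limma adjusted p = 0.25). These values depended on single samples. Without wild type replicate 1 they were -0.07 and -0.25, and when 1 sample was left out they ran from -0.54 (without 2cpab replicate 1) to -0.07 in 2cpab, with -0.11 without 2cpab replicate 2, and from -0.58 (without wild type replicate 2) to -0.25 in ntrc-2cpab. The coding sequences of GAPA1 and GAPA2 were 85.8% identical over 1188 aligned bases, and their longest shared run was 29 bases. The sources used here do not say how reads matching both genes were counted, and their levels are uncertain to that extent.

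PRK and the bisphosphatases gave nearly the same picture. PRK (AT1G32060, chr1:11532199-11534639, plus strand), for phosphoribulokinase, stood at 406, 503 and 457 in wild-type leaves, at 353, 358 and 402 for 2cpab and at 403, 402 and 380 for ntrc-2cpab. All mutant samples were below the lowest wild-type sample, by a narrow margin at the top of both mutants. The level in 2cpab was 81.4% of the wild type (log2 fold change -0.29 ± 0.0944, limma adjusted p = 0.173), and in ntrc-2cpab 86.8% (-0.20, limma adjusted p = 0.231).

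FBPase (AT3G54050, chr3:20016837-20018822, plus strand) stood at 272, 320 and 312 in wild-type leaves, at 239, 233 and 262 for 2cpab and at 268, 258 and 255 for ntrc-2cpab. Again no mutant sample reached the lowest wild-type sample. Its log2 fold change was -0.30 ± 0.0852 in 2cpab (limma adjusted p = 0.143) and -0.21 in ntrc-2cpab (limma adjusted p = 0.18).

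SBPASE (AT3G55800, chr3:20709294-20711640, plus strand) stood at 324, 432 and 405 in wild-type leaves, at 298, 294 and 346 for 2cpab and at 319, 334 and 309 for ntrc-2cpab. Here wild type replicate 1 lay within the range of both mutants. The log2 fold changes were -0.30 and -0.26 (SE 0.115, limma adjusted p = 0.224 and 0.202). Without wild type replicate 1 they were -0.42 and -0.38. In the annotation GAPA1 overlaps AT3G26640 on the same strand, PRK overlaps AT1G32070 and FBPase overlaps AT3G54060 on the opposite strand. The sources used here do not say whether counting used the strand.

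Among the CP12 genes, CP12-2 was lower in both mutants and CP12-1 was not lower in ntrc-2cpab. CP12-2 (AT3G62410, chr3:23090944-23091580, plus strand), for one of the linker proteins, stood at 195, 217 and 199 in wild-type leaves, at 144, 140 and 163 for 2cpab and at 152, 151 and 152 for ntrc-2cpab. Every mutant sample lay below every wild-type sample. In ntrc-2cpab it fell to 74.6% of the wild-type level (log2 fold change -0.42 ± 0.0809, 95% interval -0.60 to -0.24, limma adjusted p = 0.0307). In 2cpab it stood at 73.4% (-0.45 ± 0.0809, interval -0.63 to -0.26), which missed the threshold (limma adjusted p = 0.0645). The call in ntrc-2cpab was near the threshold. It ended when any 1 of the 3 wild-type or the 3 ntrc-2cpab samples was left out (limma adjusted p from 0.052 to 0.0836, log2 fold changes from -0.45 to -0.37), when all loci were tested whatever their abundance (0.0552) and with the replicate number as a block (0.0556).

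CP12-1 (AT2G47400, chr2:19446730-19447642, plus strand), the most abundant CP12 transcript, stood at 223, 271 and 265 in wild-type leaves, at 192, 247 and 232 for 2cpab and at 245, 254 and 278 for ntrc-2cpab. All 3 genotypes overlapped. Its log2 fold change was -0.18 ± 0.116 in 2cpab (limma adjusted p = 0.46) and 0.04 in ntrc-2cpab (limma adjusted p = 0.872, interval -0.22 to 0.30), and the latter turned to -0.05 when wild type replicate 1 was left out and to -0.03 under quantile normalization. CP12-3 (AT1G76560, chr1:28728206-28728976, plus strand), known mainly from roots and other non-green tissue, was listed at 1.05, 0.807 and 1.13 in wild-type leaves, at 0.656, 0.906 and 0.689 for 2cpab and at 1.1, 0.366 and 0.705 for ntrc-2cpab. It made up 0.0902 to 0.277% of the summed CP12 abundance.

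The 250 bases before the annotated start of CP12-2 are shown because it was the gene called, and those of PRK and FBPase because both hold a G-box (CACGTG). Capitals mark every match, on either strand, to the motifs searched: the G-box, the I-box (GATAAG), the CCA1 site (AAAAATCT), the evening element (AAAATATCT), the AE box (AGAAACAA), the Gap box (CAAATGAA) and the TATA box (TATAAA). The windows are read 5′ to 3′ from the RefSeq TAIR10.1 genome at chr3:23090694-23090943, chr1:11531949-11532198 and chr3:20016587-20016836, all on the plus strand.
CP12-2: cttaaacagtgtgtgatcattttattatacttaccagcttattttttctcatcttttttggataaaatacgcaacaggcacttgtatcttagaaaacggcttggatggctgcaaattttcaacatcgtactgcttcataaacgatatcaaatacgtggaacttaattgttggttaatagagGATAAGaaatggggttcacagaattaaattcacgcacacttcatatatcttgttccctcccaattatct
PRK: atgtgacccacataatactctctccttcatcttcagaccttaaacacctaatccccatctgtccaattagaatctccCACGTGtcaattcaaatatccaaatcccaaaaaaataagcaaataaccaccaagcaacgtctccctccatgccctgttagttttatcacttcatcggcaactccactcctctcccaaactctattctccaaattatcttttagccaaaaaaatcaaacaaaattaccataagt
FBPase: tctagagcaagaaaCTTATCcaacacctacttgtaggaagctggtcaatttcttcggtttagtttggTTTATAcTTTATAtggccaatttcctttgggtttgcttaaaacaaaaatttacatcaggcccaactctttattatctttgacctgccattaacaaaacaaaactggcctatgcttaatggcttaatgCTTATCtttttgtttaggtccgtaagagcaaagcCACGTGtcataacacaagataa
The CP12-2 window held an I-box from base 69 to base 64 before the start, that of PRK a G-box from base 173 to base 168, and that of FBPase a G-box from base 22 to base 17 with 2 I-boxes and 2 TATA boxes on the opposite strand. Of the 8 genes searched (those other than CP12-1), 2 held a G-box and 3 an I-box, against 6.49 and 12.3% of the windows of 27443 protein-coding genes, and 2 held a TATA box, against 47.4%. None held the CCA1 site, the evening element, the AE box or the Gap box, which 6.69, 2.36, 4.87 and 2.83% of all windows held. With such low shares an absence from 8 windows says little, and sequence beyond the 250 bases was not searched. In the SBPASE window 2 TATA box matches overlap each other. A match describes letters only, and nothing about binding was measured.

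Read together, the genes tended to lie lower in 2cpab and none passed the test. None of the 8 tested genes was called in 2cpab (limma), where 0.134% of all genes were, 11 of them higher (0.0671%) and 11 lower (0.0671%). At an unadjusted p under 0.05 there were 6 of 8, against 17.3% of all genes. All 8 log2 fold changes were negative, from -0.45 for CP12-2 to -0.18 for CP12-1, with a median of -0.29, whereas 50.0% of all tested genes were lower and their median was 6.42e-05. Because the genes were chosen with earlier results of these data known, the shares over all genes, here and for ntrc-2cpab, describe and do not test. In 5 of the 8 (GAPA1, GAPB, PRK, FBPase and CP12-2) every 2cpab sample lay below every wild-type sample, which was so for 11.6% of all genes. The margin was narrow for GAPA1 (1002 against 1020) and PRK (402 against 406). These orders hold for the scaled values. The authors' scaling factor was higher in each wild-type sample (1.078 to 1.095) than in each 2cpab sample (0.970 to 1.022). It thus raises the wild type relative to 2cpab, and overlap was not recounted with the scaling undone. GAPA1, GAPB, PRK and FBPase correlated within genotypes (r from 0.762 to 0.942). CP12-2 had r from 0.588 (GAPA1) to 0.842 (PRK) with them, so that none of these genes can be counted as independent. With the authors' scaling between samples undone the median of all genes became 0.10 and that of the 8 genes -0.17. The calls over all genes then numbered 327 higher and 23 lower.

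In ntrc-2cpab, CP12-2 was the 1 gene of 8 called lower, where 3.94% of all genes were called, 1.33% lower and 2.61% higher. At an unadjusted p under 0.05 there were 4 of 8, against 24.4% of all genes. The median log2 fold change of the 8 genes was -0.23, against 0.0018 for all genes, and the range ran from -0.47 for GAPA2 to 0.04 for CP12-1. Without wild type replicate 1 it ran from -0.45 for CP12-2 to -0.05 for CP12-1, with GAPA2 at -0.25. In 5 of the 8 (GAPA1, GAPA2, PRK, FBPase and CP12-2) no mutant sample reached the wild type, against 13.9% of all genes. GAPA1, PRK, FBPase and CP12-2 are among the correlated genes, and the margin was again narrow for PRK (403 against 406). The authors' scaling factor was also lower in each ntrc-2cpab sample (1.007 to 1.050) than in each wild-type sample. Overlap was not recounted with the scaling undone. Without wild type replicate 1 the medians were -0.34 in 2cpab and -0.28 in ntrc-2cpab. Over all genes 427 were higher and 218 lower, which became 823 and 142 with the authors' scaling undone. Both comparisons rest on the same wild-type samples, so that they are not independent.

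**Figure D2:**
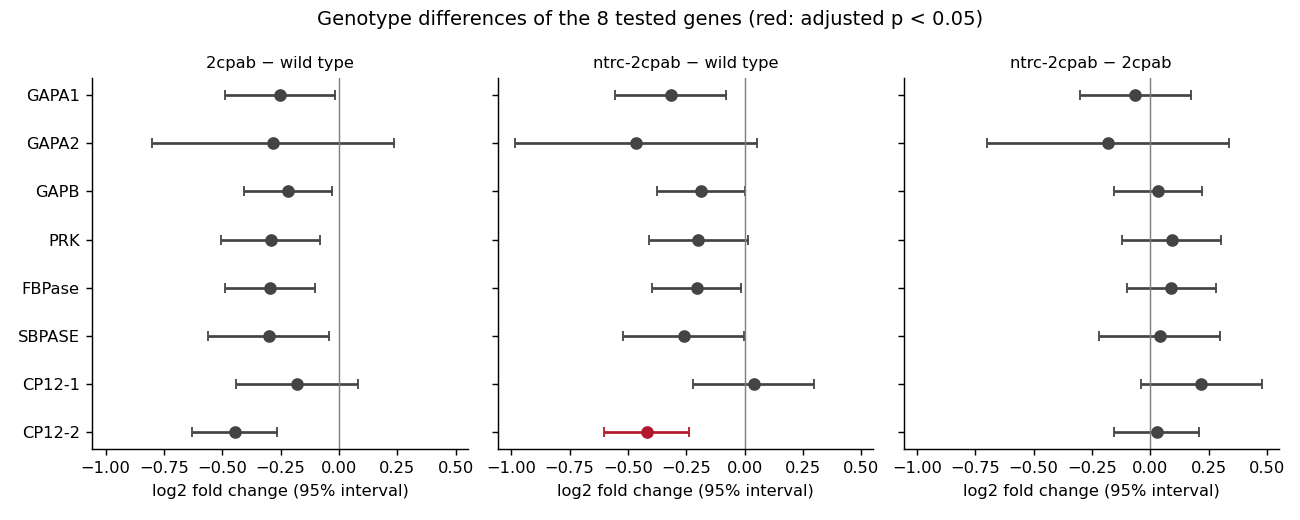
Log2 fold change (x axis) of the 8 tested genes (y axis) in the 3 comparisons, with 95% intervals from limma on 3 samples per genotype. The red point is the call, CP12-2 in ntrc-2cpab at -0.42, and the intervals of GAPA2 are the widest.

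The comparison of ntrc-2cpab with 2cpab sets the line labelled as also lacking NTRC against that labelled as lacking only the peroxiredoxins. Any other difference between these lines cannot be told apart from the loss of NTRC. None of the 8 genes was called (limma), at an unadjusted p under 0.05 there were 0 of 8, and 0.0061% of all genes were called (1 gene, NTRC itself), with 4.32% at an unadjusted p under 0.05. The log2 fold changes ran from -0.18 for GAPA2 to 0.22 for CP12-1, with a median of 0.04. The 95% intervals, each for a single gene and not adjusted over the 8 genes, were -0.15 to 0.21 for CP12-2, -0.12 to 0.31 for PRK, -0.10 to 0.28 for FBPase, -0.16 to 0.22 for GAPB, -0.22 to 0.30 for SBPASE and -0.30 to 0.17 for GAPA1. They reached further for CP12-1, from -0.04 to 0.48, and for GAPA2, from -0.70 to 0.34. The mutants overlapped in 8 of 8 genes, where 4.53% of all genes were lower and 5.37% higher in ntrc-2cpab without overlap. With the authors' scaling undone the median of the 8 genes was -0.0088.

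Ratios within a sample do not depend on the scaling between samples. CP12-1 made up 53.2, 55.5 and 57% of the CP12 transcripts in wild-type leaves, 57, 63.7 and 58.6% for 2cpab and 61.6, 62.6 and 64.5% for ntrc-2cpab. The ntrc-2cpab samples lay above the wild type, at 62.9 ± 1.5% against 55.2 ± 1.92% (SD, n = 3 each, two-sided exact permutation p = 0.1, the smallest that 3 against 3 allows, and 0.75 adjusted over 15 tests of ratios). The share in 2cpab, 59.7 ± 3.52%, overlapped the wild type (exact permutation p = 0.2). CP12-3 made up at most 0.277%, so the CP12-1 share is nearly the complement of that of CP12-2. It is not a result separate from the lower CP12-2. The summed CP12 abundance relative to PRK was 1.01 ± 0.0302 in wild-type leaves, 1.01 ± 0.0679 for 2cpab and 1.04 ± 0.0773 for ntrc-2cpab. Between the genotypes the exact permutation p ran from 0.5 to 1.

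Within the dehydrogenase, replicate 1 of the wild type and of 2cpab combined a high GAPA2 share with a low ratio of GAPB to the GAPA genes. GAPA2 gave 44.2% of the GAPA transcripts in wild type replicate 1 and 42.1% in 2cpab replicate 1, and 29.8 to 33.5% in the other 7 samples. GAPB relative to the summed GAPA genes was 0.423, 0.504 and 0.503 in wild-type leaves, 0.423, 0.54 and 0.518 for 2cpab and 0.556, 0.51 and 0.566 for ntrc-2cpab. The ntrc-2cpab samples thus lay above the wild type (0.544 ± 0.0302 against 0.476 ± 0.0463, exact permutation p = 0.1, adjusted p = 0.75 over the 15 tests). Without wild type replicate 1 the difference between these means was 0.0407 in place of 0.0675.

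**Figure D3:**
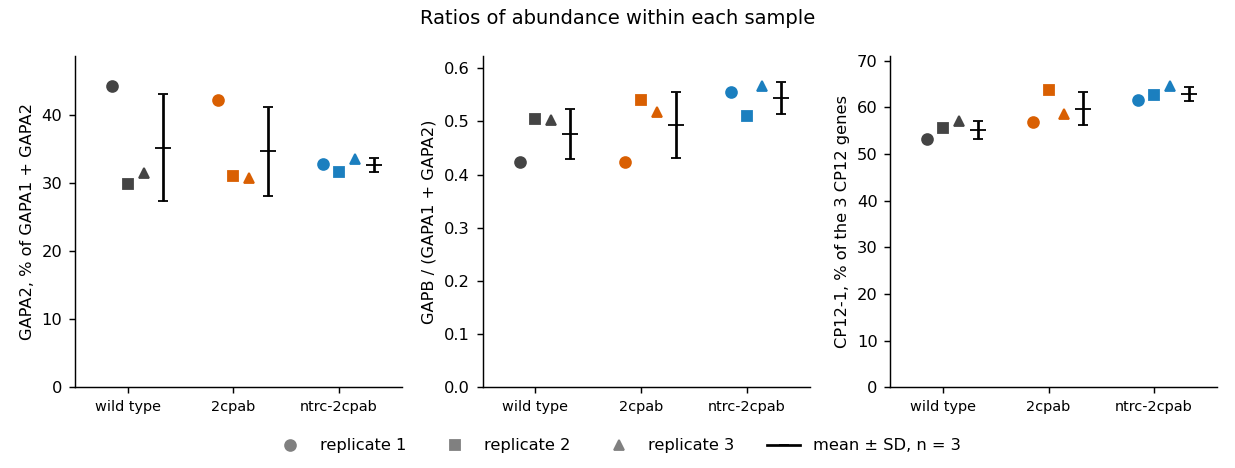
Ratios of scaled abundance within each sample (y axes, from 0) by genotype: the GAPA2 share of GAPA1 plus GAPA2, GAPB over GAPA1 plus GAPA2, and the CP12-1 share of the CP12 genes. Symbols mark the replicates and bars mean ± SD of 3 samples. Replicate 1 of the wild type and of 2cpab stand apart in the GAPA2 share, at 44.2 and 42.1%.

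With the genotype means removed, the 10 pairs among GAPA1, GAPB, PRK, FBPase and SBPASE had positive correlations across samples (r from 0.736 to 0.963). When the 2 samples farthest from the median of the first gene of a pair were left out, r for these pairs ran from 0.414 for FBPase and SBPASE (0.951 over all samples) to 0.976. For pairs with GAPB or PRK first, 0.976 among them, the samples left out shared a genotype. Its remaining sample is then 0 after the genotype means are removed, so that r rests on the other genotypes. With GAPA1, GAPB, PRK, FBPase and SBPASE, CP12-2 had positive r too, from 0.588 (GAPA1) to 0.842 (PRK). With 2 samples left out in the same way these ran from 0.529 (SBPASE) to 0.87 (PRK). GAPA2 had a negative r with each of the other 7 genes, but for 6 of them r turned positive, from 0.439 with GAPA1 to 0.905 with GAPB, when wild type replicate 1 and 1 other sample were left out. Correlations were computed for the 28 pairs of tested genes over 9 samples, and tested by exact permutation within genotypes (216 arrangements, smallest possible p 0.00463). PRK and SBPASE had r = 0.963 (two-sided exact permutation p = 0.0185, 0.0778 adjusted over 28 pairs) and rho = 0.883 (p = 0.0231, adjusted 0.0973), and r = 0.951 without wild type replicates 1 and 2. PRK and FBPase had r = 0.942 (exact permutation p = 0.0139, adjusted 0.0778) and rho = 0.883 (p = 0.0139, adjusted 0.0973), and r = 0.922 without the same samples. GAPA1 and GAPA2, which encode the same subunit, had r = -0.0336 (exact permutation p = 0.921, adjusted 0.931) and rho = -0.133 (p = 0.745, adjusted 0.902), and r = 0.439 without wild type replicate 1 and ntrc-2cpab replicate 3. GAPA2 ran opposite to CP12-1, with r = -0.982 and rho = -0.95 (both exact permutation p = 0.00463, adjusted 0.0648), and r = -0.956 without replicate 1 of the wild type and of 2cpab. No pair passed after adjustment.

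The balance between short and long transcripts also differed between samples, and its correlation was highest in size with GAPA2 and CP12-1, though neither passed after adjustment. This measure was chosen after the values were seen. It is the median log2 deviation from the 9-sample mean of 2000 tested genes with transcripts under 1000 bases minus that of 1942 genes over 3000 bases. It was -0.22, -0.041 and -0.021 in wild-type leaves, -0.063, 0.13 and 0.045 for 2cpab and 0.027, 0.032 and 0.089 for ntrc-2cpab. Replicate 1 of the wild type was lowest and 2cpab replicate 1 next. With genotype means removed, GAPA2, whose longest transcript has 1567 bases, had r = -0.964 and rho = -0.95 with it (both exact permutation p = 0.0139, adjusted 0.0556 over 8 genes), and r = -0.933 without those samples. CP12-1, with 913 bases, had r = 0.957 and rho = 0.933 (both exact permutation p = 0.0139, adjusted 0.0556), and r = 0.841 without them, but with the genotype means kept, as plotted, r was 0.444 and rho 0.417 (for GAPA2 -0.949 and -0.983). CP12-2, with 637 bases, had r = 0.18 (exact permutation p = 0.796, adjusted 0.91) and rho = 0.0333 (p = 0.944, adjusted 1), and r = -0.75 without them. The enzymes other than GAPA2 had r from 0.00221 to 0.554, none of which passed (adjusted exact permutation p from 0.682 to 0.991), and r from -0.96 to -0.893 without those samples, so that their relation rests on which samples enter. With the genotype means kept, r for CP12-2 was -0.594 and rho -0.483. Short transcripts as a class had a median log2 fold change of 0.08 in both mutants, and CP12-2 had -0.45 and -0.42. A class median does not settle the value of a single gene. The part of this balance in the differences of GAPA2, CP12-1 and CP12-2 was not tested.

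**Figure D4:**
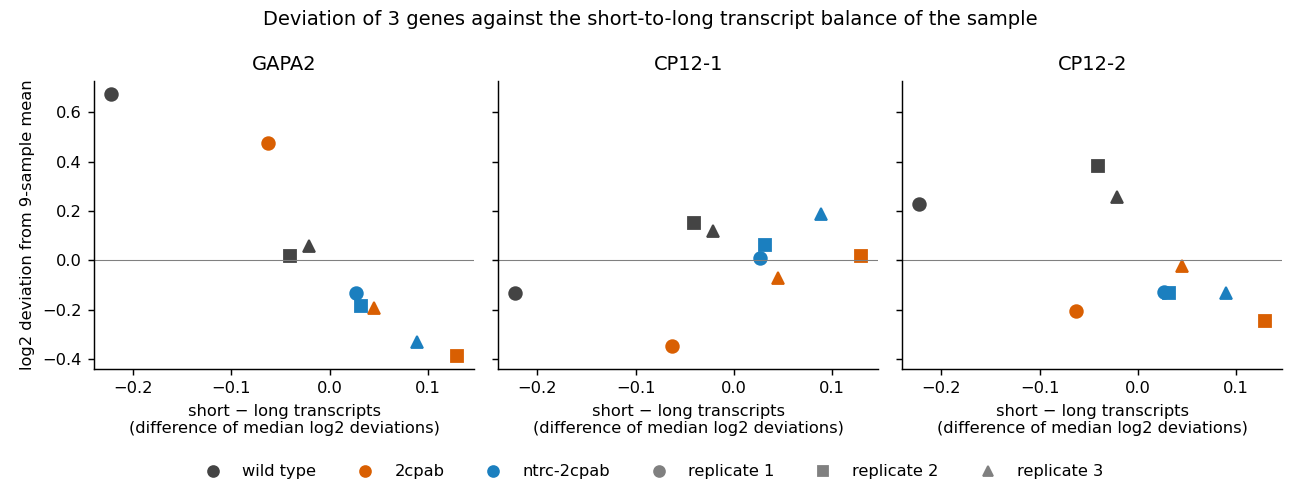
Log2 deviation of GAPA2, CP12-1 and CP12-2 from the 9-sample mean (y axis) against the difference in median deviation between short and long transcripts of the same sample (x axis). Each point is a sample, with colours for genotypes and symbols for replicates. GAPA2 descends from wild type replicate 1, at 0.67, to 2cpab replicate 2, at -0.39.

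The genes whose profile over the 9 samples was most like the mean of the 6 enzyme genes were CA1, for a chloroplast carbonic anhydrase (Pearson r = 0.983), LPA3, for photosystem II assembly (0.975), CLV1 (0.974), AT2G36895 (0.971) and ABCC10 (0.969). For CP12-2 they were EMB3136 (0.992), NdhL, a subunit of the chloroplast NADH dehydrogenase-like complex (0.979), and AT5G07020 (0.977). For CP12-1 they were AT4G39040 (0.961), AT3G27050 (0.944) and EMB1241 (0.941). These are descriptions over 9 samples, picked as the highest of 16384 genes, and the differences between genotypes are part of r.

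The rest of the cycle had medians near those of the 8 genes. In 2cpab 12 of 15 other Calvin-Benson genes were lower, with a median log2 fold change of -0.22, and none was called (limma). Those with the largest differences were RBCS2B, which encodes the small subunit of Rubisco and has near-identical copies (-0.74), and RCA, Rubisco activase (-0.31). In ntrc-2cpab 14 of 15 were lower, with a median of -0.22. With the authors' scaling undone these medians were -0.10 and -0.15, against -0.17 and -0.16 for the 8 genes. In ntrc-2cpab RBCS2B fell to 1284 ± 32.1 from 2046 ± 332 (log2 fold change -0.66, limma adjusted p = 0.0466). Of 6 other plastid enzymes under thioredoxin control 6 were lower in 2cpab (median -0.26) and 5 in ntrc-2cpab (median -0.24), and none was called (limma). Their medians were -0.14 and -0.16 with the scaling undone. Among them BAM1, a beta-amylase, stood at 19.2 ± 1.76 in wild-type leaves, 14.2 ± 0.473 for 2cpab and 15.1 ± 0.508 for ntrc-2cpab. G6PD1, a plastid glucose-6-phosphate dehydrogenase, stood at 35.9 ± 4.51, 27.3 ± 1.32 and 30.7 ± 1.78.

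The genes that supply reduced thioredoxin were lower in 7 of 8 cases in 2cpab (median -0.20) and in 6 of 8 in ntrc-2cpab (median -0.12), with medians of -0.079 and -0.041 when the scaling was undone. TRXF2, one of the f-type thioredoxins that reduce FBPase, fell in ntrc-2cpab to 26.7 ± 2.51 from 35.3 ± 2.58 (log2 fold change -0.39, limma adjusted p = 0.0447). In 2cpab it stood at 25.7 ± 0.841, and TRXF2 (-0.44) and TRXF1 (-0.24) had the largest differences there, neither of them called. Isoforms outside the cycle had medians nearer to 0, at -0.08 and -0.05, which turned to 0.04 and 0.03 with the authors' scaling undone. GAPC1, the cytosolic glycolytic dehydrogenase, stood at 294 ± 38.1 in wild-type leaves, 361 ± 12.4 for 2cpab and 360.3 ± 11.3 for ntrc-2cpab (log2 fold change 0.30 in both, limma adjusted p = 0.174 and 0.108), and GAPCP2, of non-green plastids, had a log2 fold change of -0.23 in 2cpab. NP-GAPDH, the cytosolic non-phosphorylating dehydrogenase, fell in ntrc-2cpab to 105 ± 9.51 from 134 ± 2.96 (log2 fold change -0.34, limma adjusted p = 0.049). All 3 of these calls lay close to the threshold. Those of TRXF2 and NP-GAPDH ended whichever 1 of the 9 samples was left out (limma adjusted p from 0.0614 to 0.114 and from 0.0516 to 0.138), and that of RBCS2B ended in each case but that of 2cpab replicate 3 (limma adjusted p from 0.0417 to 0.116). With the authors' scaling undone the limma adjusted p was 0.0512 for RBCS2B, 0.0869 for TRXF2 and 0.108 for NP-GAPDH, and without the filter on abundance 0.145, 0.0908 and 0.0809. Between the mutants no gene of these lists was called (limma).

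**Figure D5:**
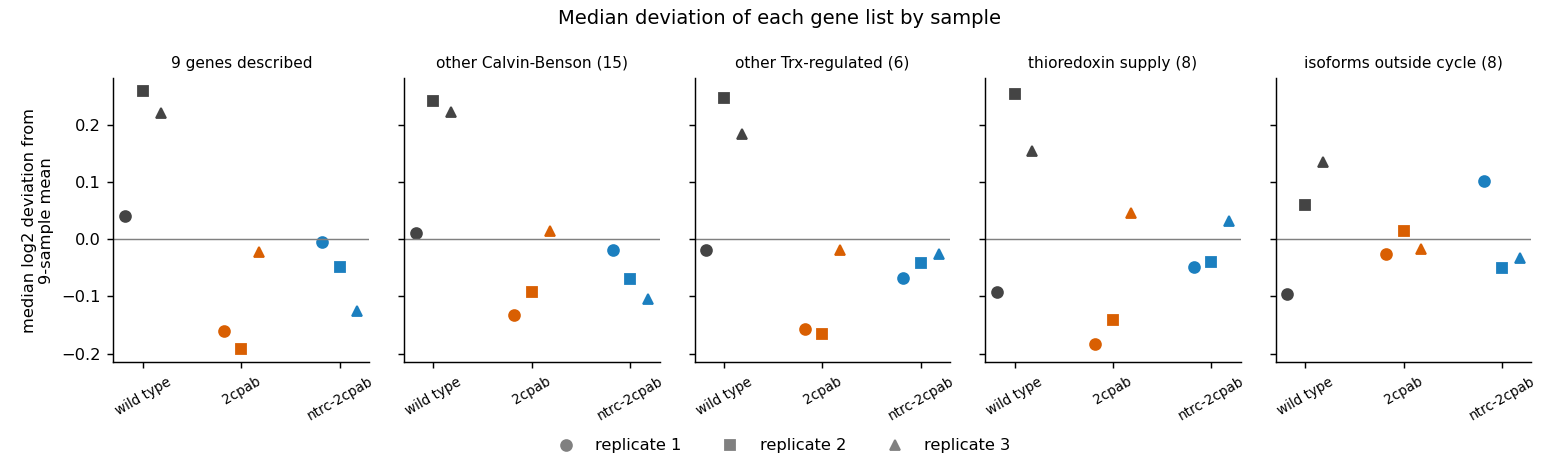
Median log2 deviation from the 9-sample mean (y axis) for the 9 genes and 4 further lists, with one point per sample by genotype and symbols for replicates. Wild type replicates 2 and 3 lie highest in every panel except that of the isoforms outside the cycle, and replicate 1 lies close to the mutants, at 0.04 for the 9 genes against -0.19 to -0.0048 in the mutants.

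Sample by sample, the median deviation of the 9 genes was 0.04, 0.26 and 0.22 in wild type replicates 1, 2 and 3. That of the 15 other cycle genes was 0.01, 0.24 and 0.22. The mesophyll markers, which include the cycle gene RBCS1A, behaved alike, at -0.043, 0.34 and 0.26, and were lower in both mutants in 3 of 3 cases with medians of -0.30 and -0.32. The 3 guard cell markers were lower in 3 of 3 cases in each mutant (medians -0.34 and -0.19) and summed to 14.3 to 23.6 per sample, and the 2 phloem markers in 2 of 2 (medians -0.26 and -0.14) with sums of 34.1 to 49.8. Of the 2 xylem markers, 1 was higher and 1 lower in 2cpab (median -0.0013) and 2 were lower in ntrc-2cpab (median -0.27), with sums of 6.98 to 10.6. None of these markers was called (limma, adjusted p). Their part in the result for the 9 genes was not tested.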

How the data were processed

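Poly(A) RNA sequencing of 9 leaf samples was used. The authors deposited 1 table of log2 values, the log2 of scaled abundance with 1 added, and per the submitters' processing notes used FastQC, HISAT2, StringTie and TAIR10. FPKM or TPM as its basis was not given in the sources used here. Every sample has the same upper quartile of abundance (5.72). Its lowest values are whole multiples of 1 small step (99.1 to 99.8% within 0.1 of a step), and the relative step size per sample, 0.97 to 1.1, was taken as the authors' scaling factor.

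Of 33602 loci, 16384 with a mean abundance of at least 1 were tested with limma 3.58.1 in R 4.3.3 (all samples in 1 fit, intensity trend, 6 residual degrees of freedom, two-sided, Benjamini-Hochberg per comparison, calls at adjusted p under 0.05). Differences refer to the log2(value + 1) scale and understate low genes. Ratios were compared by exact permutation. p-values measure the spread between pools of plants.

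The members and lists were chosen with earlier results of these data known. Named beside the 9 genes are called members of each list (at most 4), else the 2 with the largest change, and the genes most alike in profile. Coordinates, motifs and coding identities come from the RefSeq TAIR10.1 genome (Python 3.11.15, Biopython 1.88), and 95.8% of tested genes had a transcript length. On simulated data for ntrc-2cpab against the wild type (16384 genes), 92% of those shifted by 1 (log2) were recovered. Differences as small as those described here were not simulated. Alternatives covered filter, scaling, pseudocount, trend, weights, block and leaving out each sample. The sequence before CP12-1 is not reported here.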

Additional observations from a re-analysis of the deposited data

How the results depend on the processing

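The 8 genes kept their direction in 2cpab under all 17 alternatives. The gene count there (22) became 35 with no filter on low abundance, 350 with the authors' scaling undone, 164 with array weights (when CP12-2 was called, limma adjusted p = 0.0447, giving 1 called member) and 9 with the replicate block, and 4 (without 2cpab replicate 2) to 116 (without wild type replicate 2) when 1 sample was left out. In ntrc-2cpab the 645 became 194 with no filter and 357 with the replicate block, each with 0 called members, and 49 (without wild type replicate 1; 56 without ntrc-2cpab replicate 1) to 761 (without wild type replicate 2), with 0 to 1 called members, when 1 sample was left out. Between the mutants the 1 gene became 4 with no filter and 1 to 2 when 1 sample was left out. Same-numbered samples did not deviate together (r from -0.156 to 0.21), so the numbers were not taken as pairs. Under the block the calls of RBCS2B (0.0521) and NP-GAPDH (0.074) also missed the threshold and that of TRXF2 (0.0466) did not (limma adjusted p). That of NP-GAPDH also missed it with no intensity trend (0.0526) and with array weights (0.0629). BAM1 in ntrc-2cpab passed with a minimum abundance of 5 (0.0445), with quantile normalization (0.0489) and without wild type replicate 3 (0.0479), and RBCS2B (0.0447) and TRXF2 (0.0454) in 2cpab with array weights.

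Small differences changed sign. With quantile normalization CP12-1 in ntrc-2cpab was -0.0316, and GAPB and CP12-2 between the mutants -0.0392 and -0.0102. With the scaling undone GAPB, CP12-2 and SBPASE between the mutants were -0.0121, -0.0186 and -0.00548. With array weights CP12-1 in ntrc-2cpab was -0.0107. When 1 sample was left out, CP12-1 in ntrc-2cpab ran from -0.0502 to 0.0916, and between the mutants GAPA1 from -0.129 to 0.0233, GAPA2 from -0.358 to 0.0729, GAPB from -0.0205 to 0.0814, CP12-2 from -0.0171 to 0.0941 and SBPASE from -0.00107 to 0.115. In the same way the GAPA2 share of the GAPA genes ran from -4.32 to 3.96 percentage points (2cpab minus wild type), from -5.22 to 1.97 (ntrc-2cpab minus wild type) and from -3.97 to 1.78 (between the mutants), the CP12-3 share from -0.0928 to 0.00041 and from -0.0737 to 0.0195 (ntrc-2cpab against wild type and 2cpab), GAPB over the GAPA genes in 2cpab from -0.0095 to 0.0525, and CP12 over PRK from -0.0366 to 0.0285, from -0.00697 to 0.0651 and from -0.0085 to 0.0737 in the 3 comparisons. The cause was not tested. Read depth is unknown, so precision rests on 3 samples per genotype.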
